A study of Rattus norvegicus with 6 samples.

Results

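The acid-base genes of the kidney's intercalated cells were followed in male Sprague-Dawley rats, in RNA of the renal cortex, after 4-hydroxy-m-phenylenediammonium dichloride, an aromatic diamine salt, or corn oil was given. The 10 genes were chosen for their role: Atp6v1b1, Atp6v0d2, Atp6v1g3, Atp6v0a4 and Atp6v1c2 encode proton pump subunits, Slc26a4 and Slc4a9 anion transporters, Rhcg an ammonia channel, Car2 a carbonic anhydrase and Foxi1 a transcription factor. All array probes whose RefSeq accession belongs to one of them were taken, which gave 15 probes of 9 genes out of 28206 named probes of 15645 genes. No probe carried an accession of Atp6v0a4, which was not analysed here. The 3 treated animals received 100 mg/kg/day for 4 weeks, and the 3 control animals received corn oil for the same time; the sources used here name neither the route nor the compound's vehicle. All 6 rats were Crl:CD(SD) males bought at 5 weeks of age, and each had 1 Cy3 array of its own cortex RNA.

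Intercalated cells are scattered among the principal cells of the connecting tubule and collecting duct and set the acid content of the urine. Carbonic anhydrase 2, encoded by Car2, makes protons and bicarbonate inside them. Type A cells pump the protons into the urine with the vacuolar H+-ATPase and return bicarbonate to the blood through the anion exchanger encoded by Slc4a1, whereas type B cells secrete bicarbonate through pendrin, encoded by Slc26a4. Work in mice has shown that Foxi1 is needed for these cells to form and to express Atp6v1b1, Slc26a4 and Slc4a9.

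Forkhead factors such as Foxi1 bind sites with the core letters TGTTTA, and the promoters of the member genes were searched for them on both strands. RefSeq promoter sequences (build GRCr8) were on hand for 8 of the 10 genes, all but Atp6v0d2 and Car2, and the 250 bases before the start were read. The core was found in 2 of the 8, Atp6v1b1 and Atp6v1g3, and in 12.2% of 27457 RefSeq promoters of that length. The windows of Atp6v1c2 and Atp6v0a4, also proton pump subunit genes, held no core. The 2 sequences that hold the core are shown. They run 5′ to 3′ on the gene's strand, with the core in capitals. The Atp6v1b1 window is chr4:117781194-117781443 on the plus strand and the Atp6v1g3 window is chr13:52362082-52362331 on the plus strand.
Atp6v1b1: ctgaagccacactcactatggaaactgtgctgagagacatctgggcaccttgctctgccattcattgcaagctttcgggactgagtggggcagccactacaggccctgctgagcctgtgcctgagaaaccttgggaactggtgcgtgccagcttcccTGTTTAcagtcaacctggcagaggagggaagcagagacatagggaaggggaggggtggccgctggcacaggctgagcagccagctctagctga
Atp6v1g3: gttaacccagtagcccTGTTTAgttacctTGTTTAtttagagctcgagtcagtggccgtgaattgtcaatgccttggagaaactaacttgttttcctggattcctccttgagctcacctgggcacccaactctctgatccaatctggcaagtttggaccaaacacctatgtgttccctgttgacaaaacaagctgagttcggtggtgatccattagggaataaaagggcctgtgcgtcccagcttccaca
The core in Atp6v1b1 began 93 bases before the start, and those in Atp6v1g3 began 234 and 221 bases before it. A match is a description of the letters in the window and was not tested as a binding site.

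Levels are log2 signals relative to the array's 75th percentile, and they are not compared between probes, which differ in how they bind. From 68.9% to 69.6% of the 61537 probes were well above background on treated arrays and from 63.1% to 67.7% on control arrays. All treated arrays lay on one slide and all control arrays on another, scanned separately, so the effects of slide and treatment cannot be told apart. After scaling, the treated minus control log2 difference of 7 spike-in probes was -0.13 at the median and -0.19 to -0.065 in range. The median log2 fold change of all 12130 genes tested was -0.030. The 10 proximal tubule genes on a marker list and the 9 intercalated cell genes with a probe were well above background on all 6 arrays.

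The intercalated cell genes differed little between the groups. With limma over all 12130 genes, 0 of the 9 passed an adjusted p of 0.05, where 4.38% of all genes did, and 2 had an unadjusted p under 0.05, Car2 on the higher side and Atp6v1g3 on the lower, where 25.0% of all genes did. With every other setting tried, 0 of the 9 passed as well. The log2 fold changes, treated minus control, ran from -0.20 for Slc26a4 to 0.34 for Slc4a9, with a median of 0.026. The median absolute log2 fold change was 0.075, beside 0.14 over all genes tested. The treated values did not overlap the control values for 2 of the 9 genes, beside 32.8% of all genes: 1 lay above the controls, beside 14.1%, and 1 below, beside 18.7%. The 95% interval of each difference lay inside a 2-fold change in either direction for 9 of 9 members and for 89.1% of all genes. The highest upper limit was 1.68-fold, for Slc4a9, and the lowest lower limit was 0.709-fold, for Slc26a4. These intervals rest on the spread between animals and do not cover a difference between the slides. In RNA from whole cortex, fewer cells of a type and less RNA per cell cannot be told apart.

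**Figure D1:**
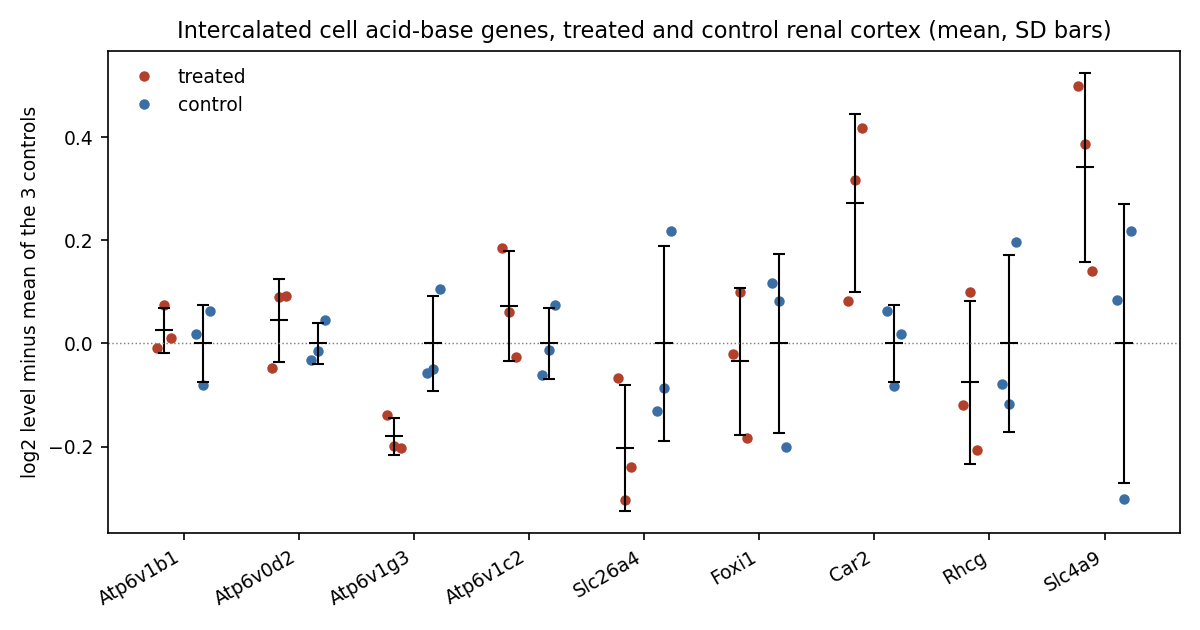
Log2 level of each member gene minus the mean of its 3 controls, at its brightest probe, with treated animals at the left of each pair and control animals at the right; points are single animals in replicate order, and bars are the mean with SD. The treated and control values separate for Atp6v1g3, where treated animals are lower, and for Car2, where they are higher.

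The vacuolar H+-ATPase pumps protons with a soluble V1 sector that splits ATP and a membrane V0 sector that carries the protons. Atp6v1b1 encodes the B1 subunit, the kidney form of a V1 subunit that helps to bind ATP. At its brightest probe it read 3.93, 4.01 and 3.94 in the treated animals, against 3.95, 3.85 and 4.00 in the control animals. The groups overlapped, and the log2 fold change was 0.026 (SE 0.063, limma adjusted p = 0.834). Its other probe read -0.021, -0.014 and 0.077 in treated animals, against -0.11, -0.12 and -0.087 in control animals, with every treated value above every control value. That difference of 0.12 (SE 0.059) did not pass in the fit over 40988 probes (limma adjusted p = 0.257).

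Atp6v1g3 encodes a kidney form of the G subunit, part of the stalk that holds V1 to V0. Its brightest probe read 6.19, 6.13 and 6.13 in treated animals, against 6.27, 6.28 and 6.44 in control animals. Each treated value lay below each control value, and the log2 fold change was -0.18 (SE 0.067, limma adjusted p = 0.173), a level 1.13-fold higher in controls. The gap between the nearest animals was small, and the control range was widened by control replicate 3. The second probe read 3.18, 3.19 and 3.15 in treated animals, against 3.13, 3.20 and 3.39 in control animals. Those values overlapped, and the log2 fold change was -0.071 (SE 0.084). With the arrays scaled on the spike-in transcripts, which moved the median of all genes by 0.13 to 0.099, the change at the brightest probe was -0.051.

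Atp6v0d2 encodes a kidney and osteoclast form of the d subunit, which links the V0 ring to the rotor. It read 2.83, 2.97 and 2.97 in treated animals, against 2.85, 2.87 and 2.93 in control animals, and the log2 fold change was 0.045 (SE 0.064, limma adjusted p = 0.697). Atp6v1c2 encodes a form of the C subunit found in kidney and lung, which joins the sectors when the pump assembles. It read 1.14, 1.02 and 0.929 in treated animals, against 0.894, 0.944 and 1.03 in control animals, and the log2 fold change was 0.073 (SE 0.077, limma adjusted p = 0.594). The groups overlapped for both genes. With a normexp background both values turned to the other sign, -0.020 and -0.045.

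**Figure D2:**
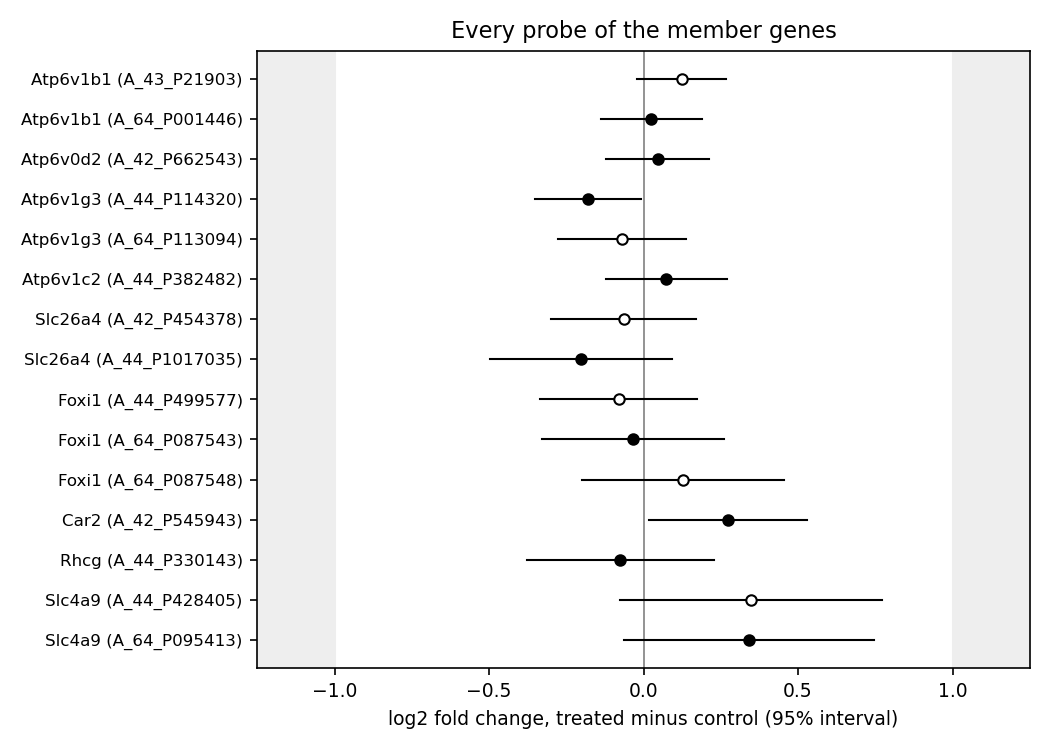
Log2 fold change, treated minus control, of each of the 15 probes with its 95% interval from the limma fit over all probes; filled points are the brightest probe of each gene, open points the others, and grey bands mark changes of more than 2-fold. All 15 intervals stay between the bands, and the intervals of Atp6v1g3 at its brightest probe and of Car2 do not reach 0.

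Across all 15 probes, 0 passed an adjusted p of 0.05 with limma, where 6.72% of 40988 probes did (4.97% higher and 1.74% lower in treated animals), and 2 had an unadjusted p under 0.05, where 25.5% did. The groups did not overlap at 3 of the 15 probes, beside 33.3% of all probes, of which 16.6% lay on each side. Of the 5 genes with more than 1 probe, Foxi1 had the widest spread of log2 fold changes, from -0.081 to 0.13, and Slc4a9 the narrowest, from 0.34 to 0.35. The sources used here do not say which part of a transcript each probe reads.

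The transporters of type B cells lay at both ends of the range. Slc26a4 encodes pendrin, which exchanges chloride for bicarbonate at the urine side of the cell. It read 5.58, 5.34 and 5.41 in treated animals, against 5.52, 5.56 and 5.86 in control animals. Treated replicate 1 lay above 2 of the control animals, and the log2 fold change was -0.20 (SE 0.12, limma adjusted p = 0.344). At the second probe the log2 fold change was -0.064 (SE 0.095). Without control replicate 3, the highest control animal, the value at the brightest probe was -0.094.

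Slc4a9 encodes the transporter AE4, which sits at the blood side of type B cells and moves bicarbonate. It read 2.95, 2.84 and 2.59 in treated animals, against 2.54, 2.15 and 2.67 in control animals. Only treated replicate 3 fell among the controls, and the log2 fold change was 0.34 (SE 0.16, limma adjusted p = 0.262), or 1.27-fold with an interval of 0.957-fold to 1.68-fold. The second probe read 2.97, 2.87 and 2.53 in treated animals, against 2.50, 2.16 and 2.67 in control animals. Control replicate 2 was the lowest animal at each probe. The log2 fold change was 0.19 without that animal and 0.45 without control replicate 3.

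Foxi1, the forkhead factor of intercalated cells, read 3.38, 3.50 and 3.21 in treated animals, against 3.51, 3.48 and 3.20 in control animals. The ranges were nearly the same, and the log2 fold change was -0.035 (SE 0.12, limma adjusted p = 0.885), with an interval of 0.797-fold to 1.20-fold. The remaining probes gave -0.081 (SE 0.10) and 0.13 (SE 0.13). Replicate 3 was the lowest of its group at all 3 probes in both groups. The sign turned positive at the brightest probe under 5 of the alternatives and also with the mean of the probes, and the values stayed between -0.13 and 0.094.

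Rhcg encodes a channel that lets ammonia leave collecting duct cells into the urine. It read 2.83, 3.05 and 2.74 in treated animals, against 2.87, 2.83 and 3.15 in control animals. The groups overlapped, and the log2 fold change was -0.075 (SE 0.12, limma adjusted p = 0.738).

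Car2 read 4.64, 4.87 and 4.97 in treated animals, against 4.62, 4.47 and 4.57 in control animals. Each treated value was above each control value, though treated replicate 1 exceeded control replicate 1 by little. The log2 fold change was 0.27 (SE 0.10), or 1.21-fold with an interval of 1.01-fold to 1.44-fold, and it did not pass (limma adjusted p = 0.175). Across the 17 alternatives it stayed positive, between 0.20 without treated replicate 3 and 0.40 with spike-in scaling. The Car2 probe passed in the probe fit with spike-in scaling alone (limma adjusted p = 0.045).

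Carbonic anhydrase 2 is also a protein of red blood cells, and Slc4a1, the anion exchanger of type A cells, is the band 3 protein of the red cell membrane. Slc4a1 read 3.12, 3.44 and 3.31 in treated animals, against 2.92, 2.82 and 2.93 in control animals. The groups did not overlap, and the log2 fold change was 0.40 (SE 0.094, limma adjusted p = 0.072). It passed with a normexp background, an intensity trend and spike-in scaling, with adjusted p of 0.029, 0.046 and 0.033. At its dimmer probe the log2 fold change was 0.61 (SE 0.18) and did not pass (limma adjusted p = 0.10). Of 17 red blood cell genes listed, 11 were tested, and 9 of these were well above background on all 6 arrays, a restriction added after seeing the data. Over the 9, the mean was higher in treated animals for 9, beside 41.4% of all 11460 genes detected on all arrays. Treated animals lay above controls without overlap for 6 of the 9, beside 13.1% of those genes. Centred on the controls, the mean level of the 9 was 0.47, 0.97 and 1.14 in the treated animals, against 0.0051, -0.14 and 0.13 in the control animals. Relative to controls, Car2 was at 0.082, 0.32 and 0.42 in the same treated animals, and Slc4a1 at 0.23, 0.55 and 0.41. Treated replicate 3 was the highest of the treated animals for Car2, and treated replicate 2 for Slc4a1. The part of red cell RNA in the Car2 and Slc4a1 values was not tested.

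**Figure D3:**
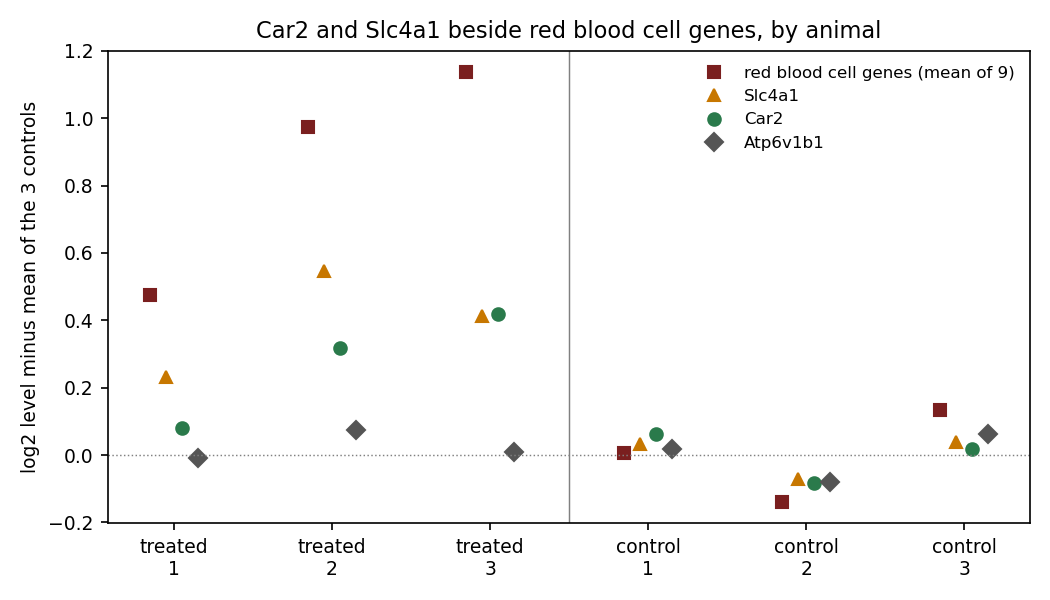
Log2 level minus the mean of the 3 controls for the mean of 9 red blood cell genes detected on all arrays, Slc4a1, Car2 and, for comparison, Atp6v1b1 in each treated animal (left) and control animal (right); each point is 1 animal. Red cell genes reach 0.47, 0.97 and 1.14 in treated animals, with Car2 at 0.082, 0.32 and 0.42 and Slc4a1 at 0.23, 0.55 and 0.41. Atp6v1b1 stays near 0.

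Among the animals, control replicate 3 stood somewhat apart for these genes. It was the highest control for 7 of the 9 members, all but Foxi1 and Car2, whereas it was the highest control for 28.8% of all genes tested. It also had the fewest probes well above background, 63.1%. Control replicate 2 was the highest control for 0 of the 9. Averaged over the 9 genes after centring each, the level was 0.026, 0.055 and -0.037 in treated animals, against -0.023, -0.088 and 0.067 in control animals. The treated animals lay within the range of the controls. The SD within a group ran from 0.036 for Atp6v1g3 in treated animals to 0.27 for Slc4a9 in control animals. The 5 other genes whose levels followed this average most closely over the 6 arrays were Adgrg1, Zfp251, Ubr1, Sema3e and Syngr3, with Pearson r of 0.977 to 0.982 across the arrays. These genes were picked from all genes tested for the highest r, each at its brightest probe. At a second probe the log2 fold change was -0.22 for Adgrg1, -0.12 for Zfp251 and 0.13 for Syngr3. At the brightest probe it was 0.041, 0.032 and 0.096. The arrays share their slide within a group, and r is given as a description.

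A ratio taken within an array is free of any single scaling factor of that array, though not of quantile scaling, and 5 pairs were read in this way, chosen with their values known and given without a test. In 4 of them a kidney form of a pump subunit was set against the form that most cells use, and each log2 ratio was centred on the control mean. The ratio of Atp6v1b1 to Atp6v1b2 was 0.33, 0.19 and 0.17 in treated animals, against -0.053, -0.071 and 0.12 in control animals. At the brightest probe of each gene, the treated animals lay above the controls by 0.23 on average. Atp6v1b2 itself, the B2 form, was at -0.21 (log2 fold change, SE 0.081, limma adjusted p = 0.190), and its dimmer probe gave -0.085. That dimmer probe read 2.16, 2.36 and 2.43 in treated animals, against 2.51, 2.29 and 2.40 in control animals. With the brightest Atp6v1b1 probe over it, the ratio overlapped between the groups. With the dimmer Atp6v1b1 probe the groups did not overlap over either Atp6v1b2 probe, so the separation depends on the probes read. The ratios of Atp6v1c2 to Atp6v1c1, of Atp6v0d2 to Atp6v0d1 and of Atp6v1g3 to Atp6v1g1 differed by 0.15, 0.089 and -0.15, and the groups overlapped in all 3.

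The ratio of Slc4a9 to Slc26a4 separated the groups most widely of the 5. It was 0.57, 0.69 and 0.38 in treated animals, against 0.21, -0.22 and 0.00067 in control animals, with a mean of 0.55 ± 0.16 in treated animals and an SD of 0.22 in control animals (n = 3 each). Over every combination of the probes of both genes, the brightest pair included, the difference ran from 0.41 to 0.55. The groups did not overlap in 4 of 4, but these combinations read the same animals and are not separate evidence. The pair was picked for its difference, so these values are a description. How often other gene pairs separate in this way was not tested.

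**Figure D4:**
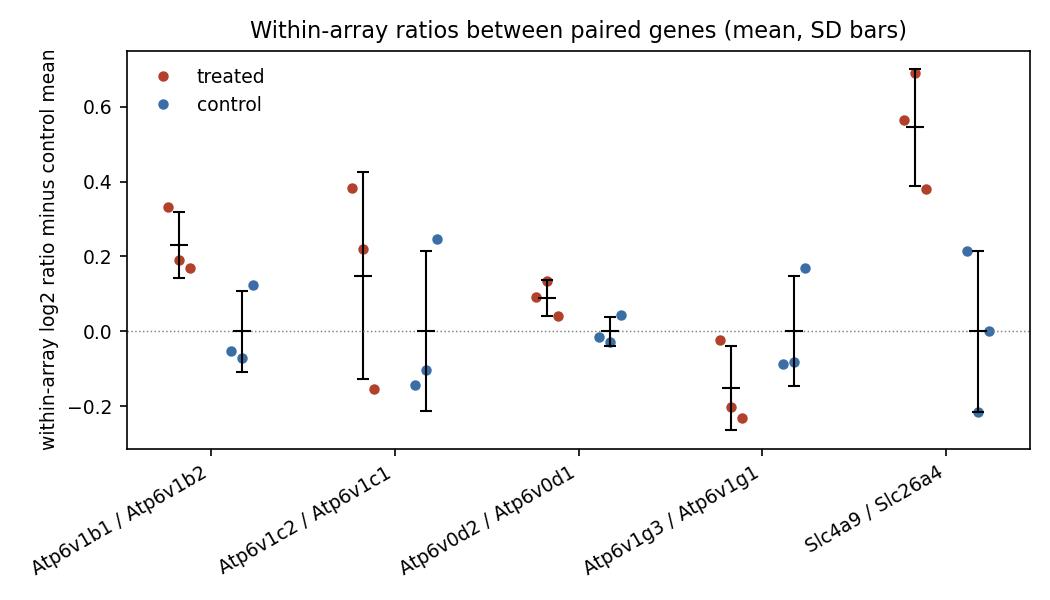
Within-array log2 ratio between paired genes minus the mean of the 3 controls, with treated animals at the left of each pair and control animals at the right; points are single animals, and bars are the mean with SD. At the brightest probe of each gene, treated and control animals separate for Atp6v1b1 over Atp6v1b2 and for Slc4a9 over Slc26a4. The separation of Atp6v1b1 over Atp6v1b2 depends on the probes read.

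The rest of the proton pump gave counts near those of all genes. Of 20 other subunit and accessory genes, 19 were tested, 0 passed with limma over all genes. At an unadjusted p under 0.05 there were 5, 2 on the higher and 3 on the lower side, beside the 25.0% of all genes, and 7 of the 19 did not overlap between the groups, beside 32.8%. Their median log2 fold change was -0.028. Atp6v1f, which encodes the F subunit of the V1 rotor, came nearest. It read 4.54, 4.56 and 4.44 in treated animals, against 4.82, 4.82 and 4.78 in control animals, and every treated value lay below every control value. Its log2 fold change was -0.29 (SE 0.058, limma adjusted p = 0.053), and it passed with a normexp background, the stricter filter and an intensity trend (adjusted p of 0.032, 0.048 and 0.028). Atp6ap2, the accessory subunit also known as the prorenin receptor, gave -0.17 at its brightest probe (limma adjusted p = 0.120) and -0.0051 at the second.

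Atp6v0a1 encodes the widespread form of the a subunit, whose kidney form is encoded by Atp6v0a4. Its 3 probes did not move together. The brightest read 2.82, 3.07 and 2.94 in treated animals, against 3.10, 2.80 and 2.93 in control animals, a log2 fold change of -0.0023 (SE 0.11, limma adjusted p = 0.992). A second probe read 0.956, 0.937 and 0.819 in treated animals, against -0.062, 0.10 and 0.22 in control animals. It rose by 0.82 on the log2 scale (SE 0.093) and passed in the probe fit (limma adjusted p = 0.0096). The third had a log2 fold change of -0.11 (SE 0.12), so the direction for this gene depends on the probe read.

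Of 22 other genes described in intercalated cells, 20 were tested, and 2 rose and 0 fell, where 3.05% of all genes were called higher and 1.33% lower. Their median log2 fold change was 0.042. Kcnma1 encodes the pore of the large-conductance potassium channel, through which intercalated cells can release potassium. It read -1.43, -1.54 and -1.46 in treated animals, against -2.32, -2.58 and -2.44 in control animals, a log2 fold change of 0.97 (SE 0.083, limma adjusted p = 0.015). Its other tested probe had one of 0.70 (limma adjusted p = 0.087). That probe was well above background on 2 of the 3 control arrays and was kept for its treated arrays alone, so it adds no separate support. Atp4a encodes the catalytic subunit of the gastric proton-potassium pump. It read -1.72, -1.41 and -1.37 in treated animals, against -2.06, -2.30 and -2.19 in control animals, and the log2 fold change was 0.68 (SE 0.12, limma adjusted p = 0.041). It did not pass with median scaling, the mean of probes or no filter (adjusted p of 0.055, 0.052 and 0.080). The remaining 18 did not pass.

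Acid-base and ammonia genes of other nephron segments gave 0 calls with limma among 19 tested of 21 listed, beside 4.38% of all genes. The mean was higher in treated animals for 8 and lower for 11. Their log2 fold changes ran from -1.43 to 0.93, with a median of -0.029. Of the 19, 18 were well above background on all 6 arrays, with a median of -0.029 as well. The -1.43 belongs to the remaining gene, so its size rests on values near background. The unadjusted p was under 0.05 for 6 of them, 4 higher and 2 lower, beside 25.0% of all genes. Slc4a10, which encodes a sodium-dependent bicarbonate transporter, had a log2 fold change of 0.44 (SE 0.090, limma adjusted p = 0.058), and it passed with an intensity trend and with spike-in scaling (adjusted p of 0.038 and 0.027). Slc38a3 encodes the glutamine transporter that feeds ammonia production in the proximal tubule, and its transcript is known to rise in acidosis. It read -0.54, 0.23 and 0.089 in treated animals, against -1.31, -0.57 and -1.16 in control animals. Treated replicate 1 exceeded control replicate 2 by a narrow margin, and the log2 fold change of 0.93 (SE 0.28) did not pass (limma adjusted p = 0.116), though it did with a normexp background (adjusted p = 0.048).

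Among genes of the neighbouring principal cells, 1 was called. Of 12 tested of 13 listed, 0 rose and 1 fell, where 3.05% of all genes were called higher and 1.33% lower. The list's median log2 fold change was -0.12. The called gene was Elf5, a transcription factor of principal cells that is also on the list of collecting duct fate factors. It read -3.22, -3.19 and -3.51 in treated animals, against -2.28, -2.49 and -2.52 in control animals, and fell by 0.88 on the log2 scale (SE 0.12, limma adjusted p = 0.028). Aqp2, the vasopressin-regulated water channel, had a log2 fold change of -0.26 (SE 0.17, limma adjusted p = 0.401), and its dimmer probe gave 0.12. Avpr2, the vasopressin receptor that drives it, had one of -0.14 (SE 0.087, limma adjusted p = 0.383). Among the 17 tested of 18 collecting duct fate factors, Foxi1 included, Elf5 was the single call, beside 4.38% of all genes. The median of the 17 was -0.045.

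Genes of the other cell types on the lists are given next, where 3.05% of all genes were called higher and 1.33% lower. Of 7 distal convoluted and connecting tubule genes tested, 1 fell, S100g, a calcium-binding protein gene, by 0.87 on the log2 scale (limma adjusted p = 0.044), and the list's median was -0.37. The S100g call was lost with quantile scaling, the mean of probes and no filter (adjusted p of 0.051, 0.055 and 0.085). In that list 5 of the 7 were lower at an unadjusted p under 0.05, beside 1604 of all 12130 genes. Without overlap 4 lay below controls, beside 18.7% of all genes. Of 10 proximal tubule genes 1 fell, the water channel gene Aqp1, by 0.58 (limma adjusted p = 0.034), with a list median of -0.064. Of 6 thick ascending limb genes 0 passed, with 0 at an unadjusted p under 0.05 and a median of -0.14. Umod, which encodes uromodulin, had a log2 fold change of -0.34 (limma adjusted p = 0.292), and Ptger3, a prostaglandin receptor gene, one of -0.20 (limma adjusted p = 0.332). Of 9 macrophage and osteoclast genes 0 passed, with 1 lower at an unadjusted p under 0.05 and a median of -0.075. In that list Itgam, an integrin gene of myeloid cells, had a log2 fold change of -0.66 (limma adjusted p = 0.101, and 0.036 with a normexp background), and Acp5, an acid phosphatase gene of osteoclasts, one of -0.31 (limma adjusted p = 0.238). Of the 11 red blood cell genes, 2 rose and 0 fell. One of them, Gata1, an erythroid transcription factor gene, had no control array well above background and was kept for its treated arrays alone. Its rise is a bound of at least 1.1-fold, taken against the dimmest detected probe of each control array. The call rests on a fitted log2 fold change of 1.74 (limma adjusted p = 0.039), which used those dim control values. With a normexp background or quantile scaling Gata1 did not pass (adjusted p of 0.24 and 0.078). The median log2 fold change of the red cell list was 0.88 over the 11 and 0.80 over the 9 detected on all arrays.

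Over all the lists beside the member genes, 4 genes rose and 3 fell, where 3.05% of all genes were called higher and 1.33% lower. The 4 include Gata1, whose rise is a bound. With no filter on dim probes, Kcnma1 alone of the 7 passed, and with the replicate number as a block 0 did. When 1 animal was left out, Kcnma1 passed without control replicate 2, and none of the 7 passed without treated replicate 1, 2 or 3 or control replicate 1 or 3. Without treated replicate 1 a single gene of the lists, not one of the 7, was called higher. The log2 fold changes of these 7 genes kept their sign in all 6 of these fits.

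**Figure D5:**
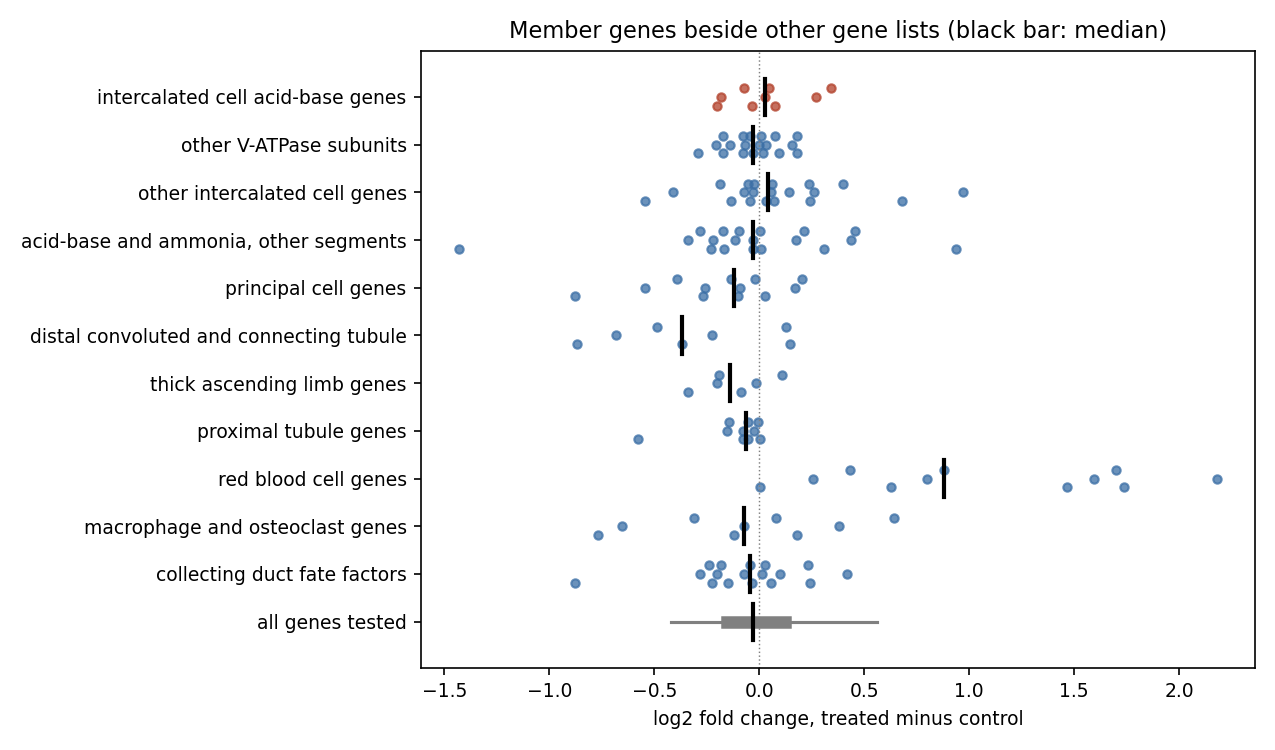
Log2 fold change, treated minus control, of the tested genes of each list at their brightest probe; points are genes, black bars are list medians, and the bottom row shows all 12130 genes tested with a thin line from the 5th to the 95th percentile and a thick line from the 25th to the 75th. The 9 intercalated cell genes lie between -0.20 and 0.34, while red blood cell genes lie to the right. The red blood cell median is 0.88 over the 11 tested and 0.80 over the 9 detected on all arrays.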

How the data were processed

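RNA from the renal cortex of 6 rats, 3 treated and 3 control, was labelled with Cy3 and hybridised to 1-colour arrays. Per the file headers, the scanner software was Agilent Feature Extraction, version 10.7.1.1 there and 10.7 in the submitters' processing notes, and the design is tied to build rn4. The deposited intensity, per the file headers, is a background-subtracted, detrended Cy3 signal that was not scaled between arrays. The deposited value table is a linear ratio, which a comparison found to be each array's signal over its own 75th percentile (ratio 0.998 at values of 1 or more, no log and no centring per gene), with column medians of 0.110, 0.108 and 0.108 for treated and 0.105, 0.105 and 0.109 for control animals; no label names that scaling.

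Each signal was put on a log2 scale relative to the array's 75th percentile, with 1 to 3 outlier spots per array set as missing. Accessions were matched without versions to RefSeq genes (GRCr8), which named 28206 of 61537 probes. Probes were kept where all arrays of 1 group or both were well above background, and a gene was read at its brightest kept probe. Genes (12130) and probes (40988) were fitted with limma 3.58.1 in R 4.3.3 and adjusted by Benjamini-Hochberg over the whole fit, with a threshold of 0.05. The number of arrays limits the precision. The test was tested on simulated arrays before use. Slide and scan each held 1 group, so neither could be a block.

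Genes named are the 10 members, up to 4 called genes per list by size of change, or else the 2 with the smallest p, the 5 most alike in pattern, and Slc4a1, Atp6v1b2, Atp6v0a1, Aqp2 and Avpr2. One gene that this rule names is not reported here. The 10 genes, the lists and the tests were chosen with earlier results of these data known. Alternatives were a normexp background (offset 50, on median spot signals), scaling by quantiles or by medians, leaving the filter out or asking for detection on all 6 arrays, the value table, an intensity trend, blocking on the replicate number, the mean of probes, a 2-fold minimum and each array left out in turn; spike-in scaling was added after seeing the data.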

Additional observations from a re-analysis of the deposited data

How the results depend on the processing

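Of the 9 member genes, 0 were called under each of the 17 alternatives, and of the 15 probes 0 were called under each but spike-in scaling, which called 1, Car2. The members' median log2 fold change was 0.026. It was -0.020 with a normexp background, -0.0079 with median scaling and 0.15 with spike-in scaling, which raised all genes alike. Small differences changed sign. A normexp background gave -0.020 for Atp6v0d2, -0.045 for Atp6v1c2, 0.044 for Foxi1, 0.053 for Atp6v0a1, -0.079 for Adgrg1, -0.0092 for Sema3e and -0.053 for Syngr3. Quantile scaling gave 0.022 for Atp6v0a1, and median scaling gave -0.0079 for Atp6v1b1 and -0.0020 for Zfp251. The mean of probes gave 0.0041 for Foxi1, -0.090 for Adgrg1, -0.042 for Zfp251 and 0.23 for Atp6v0a1. Spike-in scaling gave 0.094 for Foxi1, 0.054 for Rhcg and 0.13 for Atp6v0a1. Leaving out 1 array gave -0.015 to 0.058 for Atp6v1b1, -0.13 to 0.040 for Foxi1, -0.16 to 0.023 for Rhcg, -0.074 to 0.077 for Atp6v0a1, -0.029 to 0.12 for Adgrg1, -0.034 to 0.11 for Zfp251, -0.0054 to 0.11 for Ubr1 and -0.0062 to 0.25 for Sema3e.

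In the other lists 4 genes were called higher and 3 lower. A normexp background called 6 and 7, no filter 1 and 0, an intensity trend 8 and 6, a fold change of at least 2 called 2 and 0, spike-in scaling 12 and 3, and leaving out 1 array 0 to 1 higher and 0 lower. The replicate block called 0 and 0 in these lists and 0 over all genes, and it left the members uncalled (lowest adjusted p = 0.274, Car2). Deviations of same-numbered animals correlated at -0.12, -0.11 and 0.089 across genes, which gave no sign of pairing by number. With 3 animals per group and the groups on separate slides, these values cannot exclude it. Over all genes, 370 were called higher and 161 lower. A normexp background called 459 and 513, spike-in scaling 769 and 30, no filter 37 and 7, an intensity trend 441 and 395, the mean of probes 229 and 63, a fold change of at least 2 called 47 and 9, and leaving out 1 array 0 to 48 and 0 to 6. The cause of each shift was not tested. Leaving the filter out means that more genes are tested, and leaving out an array leaves fewer samples. How far either accounts for its shift was not tested.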
